A study of Mus musculus with 2 samples.

Results

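The EGF ligands and ErbB receptors are 9 genes here, out of 43346 gene rows measured in each library. They were chosen by name: the 5 ligands Egf, Tgfa, Hbegf, Areg and Btc, and the 4 receptors Egfr, Erbb2, Erbb3 and Erbb4, with no threshold on a measured value. Polyadenylated RNA came from kidney tissue of an adult mouse of the inbred strain C57BL/6J, a female aged 10 weeks, with no treatment, transgene or mutation named in the labels. The 1 group holds 2 libraries of that 1 tissue sample, labelled technical replicates 1 and 2 and called library 1 and library 2 here. By its label, library 2 dates from May 2015, after the study's first publication, so date and library cannot be told apart.

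Ligands of the EGF family are made as membrane-anchored precursors, and metalloproteases of the ADAM family cut them free. A released ligand binds an ErbB receptor, a tyrosine kinase of the cell surface, and receptors then pair with themselves or with each other. Egf, Tgfa and Areg bind Egfr, while Hbegf and Btc bind Egfr and Erbb4. Erbb2 has no known ligand and acts as a partner, and Erbb3 binds neuregulins but has a weak kinase of its own. In the kidney, pro-EGF is made in the thick ascending limb and the distal convoluted tubule, its product appears in urine, and EGF stimulates magnesium uptake in the distal convoluted tubule.

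Expected counts, the estimated reads per gene, summed to 28263730 in library 1 and 20720537 in library 2. TPM corrects a gene's share of its library for transcript length, and paired values give library 1 first. Genes of the mitochondrial genome and 7 near-identical nuclear copies held 74.5% and 36.5% of all TPM, which lowers every other TPM value in library 1. Kidney markers were present, with 6 of 6 thick ascending limb and 6 of 6 proximal tubule markers at TPM 1 or more in both libraries. All 6 markers of adrenal, pancreas and muscle stayed under TPM 1. With n = 2 libraries of 1 sample, every SD is technical, and a test compares 2 libraries and not conditions, with no replicate check. In bulk tissue, fewer cells of a type and less RNA per cell cannot be told apart.

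The ligands share a motif that the receptors lack, the EGF-like module that touches the receptor. It is held together by 6 cysteines. Annotated coding sequences were searched for 6 cysteine codons with 7, 4 or 5, 10 to 13, 1 and 8 other codons between them. This fixed spacing had exactly 1 match in each of the 5 ligands and none in the 4 receptors. The spacing was set for the search, so the matches are a description and not a test. EGF-like modules of other spacing, in Egf or elsewhere, would not be found, so the modules of a precursor were not counted. The same spacing occurred in 59 of 21634 protein-coding genes (0.27%) and in 6 of 6 other ligands of the family (Ereg, Epgn, Nrg1, Nrg2, Nrg3 and Nrg4). Each match in the 5 ligands was spread over 2 exons. The coding sequences of 4 modules are shown because they let the most and least abundant ligand mRNAs be compared, with cysteine codons in capitals, 5′ to 3′ as spliced (GENCODE M21 transcripts, mm10).
Egf (chr3:129686322-129690850, minus strand, codons 982 to 1018 of 1217): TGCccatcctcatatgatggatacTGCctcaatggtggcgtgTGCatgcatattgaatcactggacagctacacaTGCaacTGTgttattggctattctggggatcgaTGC
Tgfa (chr6:86263200-86269960, plus strand, codons 46 to 81 of 159): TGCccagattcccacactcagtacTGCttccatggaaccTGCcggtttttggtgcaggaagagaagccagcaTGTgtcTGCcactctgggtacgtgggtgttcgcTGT
Areg (chr5:91143614-91144364, plus strand, codons 139 to 174 of 248): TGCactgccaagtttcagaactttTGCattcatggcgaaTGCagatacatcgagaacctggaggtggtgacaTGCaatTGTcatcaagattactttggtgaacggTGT
Btc (chr5:91362421-91366197, minus strand, codons 69 to 104 of 177): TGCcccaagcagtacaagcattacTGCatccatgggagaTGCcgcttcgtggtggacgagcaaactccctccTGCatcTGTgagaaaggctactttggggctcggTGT
The Egf module has 37 codons and the other 3 have 36, the extra codon lying where the gap of 4 or 5 is. In Egf the matched module is a small piece near the end of a long precursor, whereas in Tgfa, Areg and Btc the whole precursor is short.

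Egf, the precursor of epidermal growth factor, was by far the most abundant member. The gene lies at chr3:129677565-129755316 on the minus strand of mm10. It had 217 TPM (30636 counts) in library 1 and 719 TPM (54096 counts) in library 2, or 468 ± 355 TPM (SD, n = 2 libraries). That placed it 175th and 121st among all genes, above 99% and 99.4% of the genes with TPM above 0. Egf made up 96.5% and 98.1% of the summed TPM of the 5 ligands, 27.9 and 52.7 times the other 4 together. It also exceeded the sum of the 4 receptors 10.6 and 12.3 times in TPM, and that ratio, taken within each library, differed little between them. In counts not divided by length, the receptors summed to 5577 and 5899 against 30636 and 54096 for Egf. The closeness of the ratios therefore holds on the TPM scale only. With mitochondrial genes and their copies left out of the sum, Egf had 853 and 1134 TPM.

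Set beside markers of the segments that make it, Egf moved between the libraries to a different degree than each of them. Its TPM was 0.571 and 0.273 times that of Umod, the uromodulin gene of the thick ascending limb, and 0.544 and 1.27 times that of Slc12a1, the cotransporter of the same segment. Against Slc12a3, the cotransporter of the distal convoluted tubule, Egf was 54.6 and 2.76 times as high. Egf thus lay under Umod and over Slc12a3 in both libraries, while its order against Slc12a1 turned over. Egf overlaps exons of the antisense genes 6330410L21Rik by 500 bases and Gm42697 by 607 bases, and the sources used here do not say whether counting used strand.

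Among the other ligands, Btc and Hbegf came next. Btc encodes betacellulin, a ligand of Egfr and Erbb4, and lies at chr5:91357261-91402994 on the minus strand. It had 5.04 TPM (418 counts) and 4.09 TPM (181 counts), or 4.57 ± 0.672 TPM (SD, n = 2 libraries), the closest agreement in TPM of the members above TPM 1. Rescaled without those mitochondrial sequences, it had 19.8 and 6.44 TPM, and the agreement was gone. Hbegf, the heparin-binding ligand, lies at chr18:36504927-36515805 on the minus strand. It had 2.14 TPM (144 counts) and 6.48 TPM (233 counts), or 4.31 ± 3.07 TPM (SD, n = 2 libraries). Btc stood above Hbegf in library 1 and below it in library 2.

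Tgfa and Areg were low. Tgfa encodes transforming growth factor alpha, at chr6:86195223-86275719 on the plus strand, and had 0.62 TPM (76 counts) and 3.03 TPM (176 counts). It crossed TPM 1 only in library 2. Areg, the amphiregulin gene at chr5:91139599-91148432 on the plus strand, had 0 counts in library 1 and 1 count (0.06 TPM) in library 2. A floor of 3 counts corresponds to 0.097 TPM in library 1 and 0.181 TPM in library 2, so Areg was not detectable at this depth and was not tested.

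All 4 receptors were measured, at levels far under Egf. Egfr, the receptor of every ligand in the set, lies at chr11:16752203-16918158 on the plus strand and had 5.95 TPM (1697 counts) and 11.7 TPM (1368 counts), or 8.82 ± 4.06 TPM (SD, n = 2 libraries). Erbb3, the neuregulin receptor at chr10:128567523-128589652 on the minus strand, had 7.03 TPM (1264 counts) and 20.6 TPM (1975 counts), or 13.8 ± 9.59 TPM. Both were higher in TPM in library 2, while the counts of Egfr were higher in library 1. Erbb4, a receptor of neuregulins, Btc and Hbegf, lies at chr1:68032186-69108059 on the minus strand. It had 7.15 TPM (2568 counts) and 4.29 TPM (829 counts), or 5.72 ± 2.02 TPM, the reverse direction on this scale. With mitochondrial genes and copies left out, Egfr had 23.4 and 18.4 TPM and Erbb4 28.1 and 6.76 TPM, both lower in library 2. Erbb3 then had 27.6 and 32.4 TPM.

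Erbb2 separated the libraries most. This ligandless partner lies at chr11:98412470-98437716 on the plus strand and had 0.32 TPM (48 counts) in library 1 and 21.9 TPM (1727 counts) in library 2. Its SD of 15.2 TPM exceeded its mean of 11.1 TPM. It was the lowest receptor in library 1 and level with Erbb3 at the top in library 2. An exon of it overlaps the opposite-strand gene Mien1 by 9 bases, and Mien1 had 433 and 1068 counts.

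**Figure D1:**
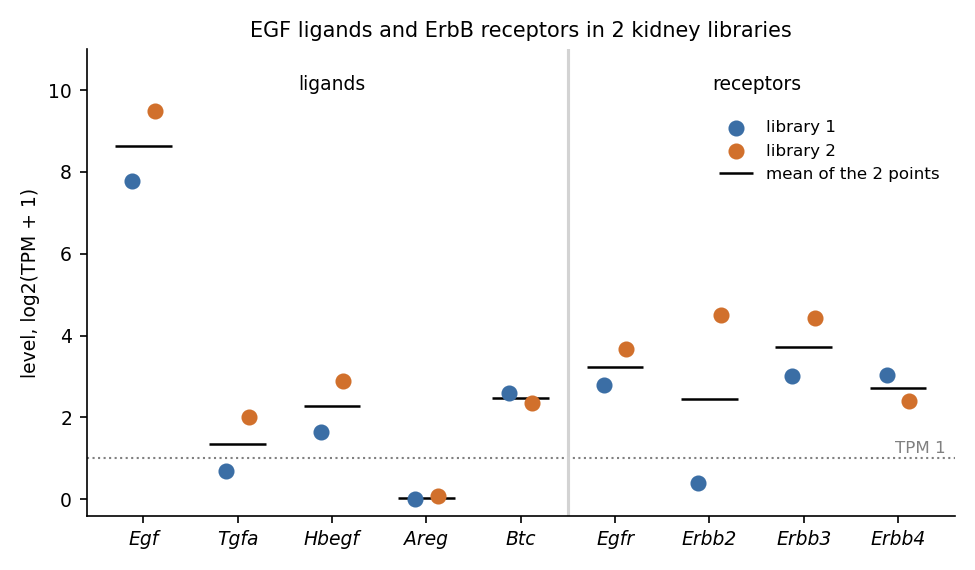
Levels of the 5 ligands and 4 receptors as log2(TPM + 1), with 1 point per library and a bar at the mean of both points; the dotted line marks TPM 1. Egf stands apart in both libraries, Areg lies at the bottom, and Erbb2 has the widest gap, 0.32 against 21.9 TPM.

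The order of levels was read from the authors' posterior mean TPM and its deposited credibility interval, whose level the sources used here do not state. In library 1 the order was Egf, Erbb4, Erbb3, Egfr, Btc, Hbegf, Tgfa, Erbb2 and Areg. Erbb4 (6.81 to 8.69 TPM), Erbb3 (6.47 to 7.22 TPM) and Egfr (5.66 to 6.63 TPM) overlapped from neighbour to neighbour there, as did Tgfa with Erbb2. In library 2 the order was Egf, Erbb2, Erbb3, Egfr, Hbegf, Erbb4, Btc, Tgfa and Areg. Erbb2 overlapped Erbb3, and each neighbouring pair from Hbegf to Tgfa overlapped. The first and last places were therefore the same in both libraries, and Erbb2 moved from 8th to 2nd. The intervals surround the posterior mean, which for Egf in library 2 is 679 TPM (673 to 685), so the deposited TPM of 719 lies outside them.

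**Figure D2:**
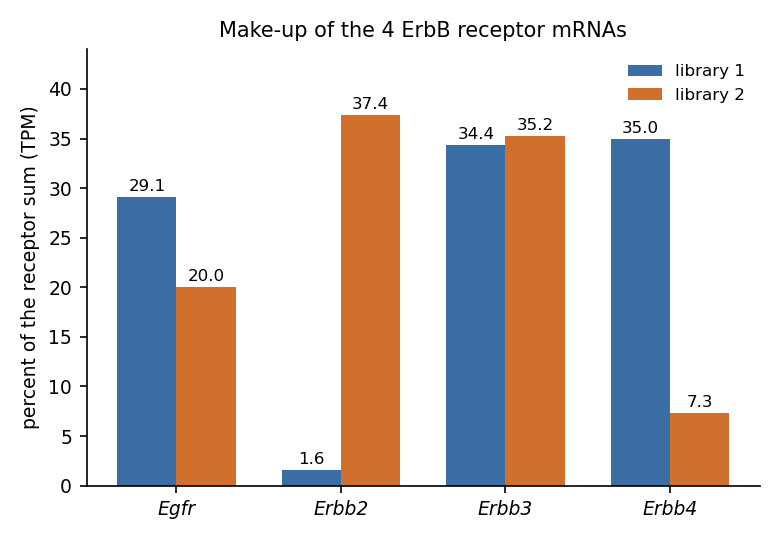
Share of each receptor in the summed TPM of the 4 receptors, in percent, with 1 bar per library. Erbb3 has close shares on this scale in both libraries, 34.4% and 35.2%, while Erbb2 and Erbb4 trade places.

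A share within a library does not depend on how libraries are scaled. Of the receptor sum (20.5 and 58.4 TPM), Erbb3 took 34.4% and 35.2%, a difference under 1 percentage point. Egfr took 29.1% and 20%. Erbb4 took 35% in library 1 and 7.34% in library 2, and Erbb2 took 1.56% and 37.4%. On this scale the libraries agreed on Erbb3 and differed on Erbb2 and Erbb4. From posterior mean TPM the share of Erbb3 was 32.5% and 33.4%, but from counts not divided by length it was 22.7% and 33.5%, so its agreement holds on the TPM scale only. Among the ligands, shares after Egf were 2.24% and 0.56% for Btc, 0.95% and 0.88% for Hbegf and 0.28% and 0.41% for Tgfa.

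Counts were scaled by TMM, which sets the typical gene near equal, and the libraries were compared gene by gene with an exact binomial test (two-sided, Benjamini-Hochberg over 15553 genes). Called genes had an adjusted p under 0.05 and differed at least 2-fold. Of the 8 members tested, 1 was called higher in library 2, against 35.7% of all genes, and 2 were called higher in library 1, against 25.2%, while 60.8% of all genes were called one way or the other. With 8 members, nothing more is read from these shares. Log2 ratios are of library 2 over library 1, and over all genes tested their median was 0.12.

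Erbb2 was the member called higher in library 2, with a log2 ratio of 4.70 and a 95% counting interval of 4.30 to 5.16, or 26-fold (19.7 to 35.7). Erbb4 was called higher in library 1, with a log2 ratio of -2.09 (-2.20 to -1.97), or 4.25-fold. Btc was called higher in library 1 as well, with -1.66 (-1.92 to -1.41), or 3.16-fold, and an adjusted p of 9.75e-42 in the exact binomial test. Btc had nearly equal TPM in the libraries, and the call arises on the TMM scale.

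The other 5 tested members stayed under a 2-fold difference. Egf had a log2 ratio of 0.36 (0.34 to 0.39), a small difference that its many counts still placed beyond counting error (exact binomial test, adjusted p = 7.66e-278). Tgfa had 0.75 (0.36 to 1.16), Erbb3 0.19 (0.08 to 0.29) and Egfr -0.77 (-0.87 to -0.66), all with adjusted p under 0.05. For Hbegf, at 0.24 (-0.07 to 0.55), the interval included 0 (exact binomial test, adjusted p = 0.148). Scaling by total counts, which moved the median of all genes to 1.02, gave Egfr 0.14, the opposite sign, and called Egf, Tgfa, Hbegf and Erbb3 higher in library 2.

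The GC content of a transcript moved with the ratio over all genes and over the members. The called members lay at the ends of the range: Erbb4 has 39.9% GC and Btc 40.6%, whereas Erbb2 has 57.3%. Between them lay Egfr at 44.4%, Egf at 49.6%, Hbegf at 49.9%, Tgfa at 50.9% and Erbb3 at 51.2%. A smooth trend over all genes gave -1.72 at the GC content of Erbb4, -1.64 at that of Btc and 3.64 at that of Erbb2. With that trend removed, Btc had a log2 ratio of -0.02 and Erbb4 -0.37, and neither was called. Erbb2 kept 1.06 and its call. Egfr turned to 0.34 and Erbb3 to -0.40, while Egf kept 0.29. Of the markers set beside Egf above, Slc12a1 has 45.4% GC, Umod 51.5% and Slc12a3 55.5%. With the trend removed their log2 ratios were 0.07, 0.73 and 1.99, and of these only Slc12a3 was called. The part of GC content in the order of Egf and these markers was not tested.

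**Figure D3:**
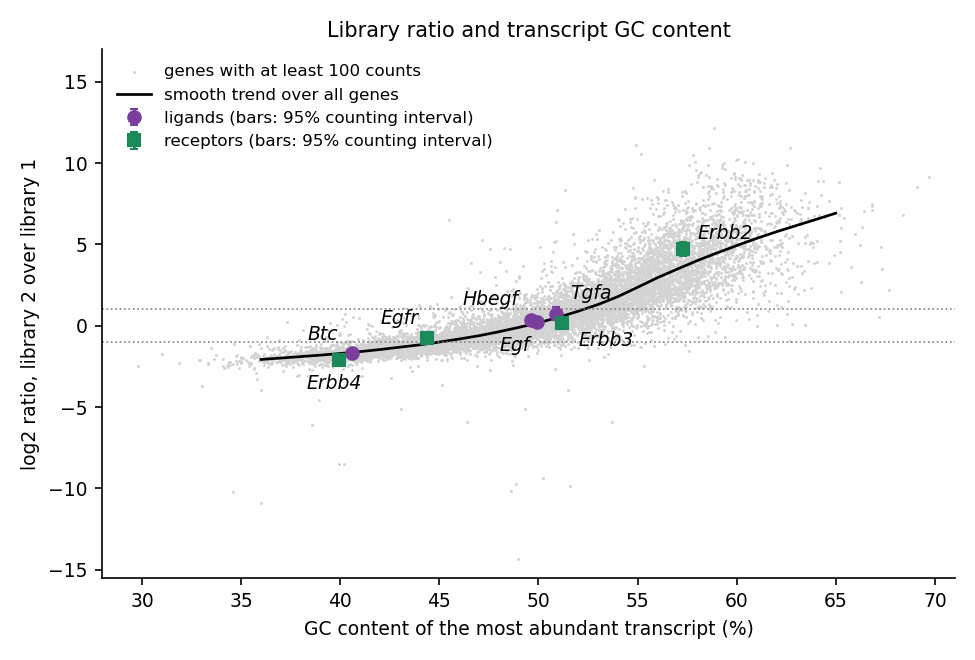
Log2 ratio of library 2 over library 1 against the GC content of each gene's most abundant transcript, in percent, for genes with at least 100 counts (grey), with the smooth trend (line), the ligands (circles) and the receptors (squares). Bars are 95% counting intervals and dotted lines mark 2-fold. The members follow the slope from Erbb4 at 39.9% GC to Erbb2 at 57.3% GC.

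Transcripts were examined next, because splicing decides whether a receptor keeps its kinase or its docking sites. The annotation holds 23 transcripts of the 9 genes, and 13 of them had counts. Egf, Hbegf, Areg, Btc and Erbb3 have 1 each. Shares are the deposited percent of a gene's TPM.

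Egfr had 2 transcripts with counts. Egfr-201, which codes for the full receptor of 1210 codons, held 89.2% of the gene in library 1 and 59.9% in library 2. Egfr-202 held 10.8% (54.3 counts) and 40.1% (212 counts). It codes for 655 codons, stops before the kinase domain and has an end of its own, shown here because it is what tells the forms apart, with 20 shared bases in lower case and the 40 coding bases found only in Egfr-202 in capitals (chr11:16887186-16887225, plus strand, mm10).
Egfr-202: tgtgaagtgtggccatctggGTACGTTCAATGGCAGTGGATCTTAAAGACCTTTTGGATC
The deposited intervals of the transcripts did not overlap in either library: 4.91 to 5.41 TPM for Egfr-201 and 0.45 to 0.85 TPM for Egfr-202 in library 1, and 6.19 to 7.02 TPM and 3.55 to 5.24 TPM in library 2. The full-length form thus led in both libraries by different margins. Egfr-201 has 44.4% GC over 10208 bases, of which a last exon of 6665 bases has 40.4%, and Egfr-202 has 50.6% GC over 2943 bases. The part of this in the shift was not tested.

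Erbb4 had a clear leading transcript in library 1 and none in library 2. Erbb4-201 held 83.1% (2125 counts) in library 1 and 45.2% (371 counts) in library 2, and Erbb4-202 held 16.9% (443 counts) and 54.8% (458 counts). Erbb4-201 contains a coding exon of 48 bases that Erbb4-202 skips (chr1:68043908-68043955, minus strand, mm10). It is the exon of the cytoplasmic form known as CYT-1, which carries a docking site for PI3 kinase. It is shown in capitals with 20 bases of each neighbouring exon, above the join that skips it.
Erbb4-201: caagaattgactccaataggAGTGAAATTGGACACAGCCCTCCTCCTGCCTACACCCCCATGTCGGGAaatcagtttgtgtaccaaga
Erbb4-202: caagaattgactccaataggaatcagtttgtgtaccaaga
In library 1 the intervals were apart, at 5.05 to 6.31 TPM and 0.68 to 1.82 TPM. In library 2 they overlapped, at 1.19 to 2.69 TPM and 1.39 to 2.85 TPM, so the order there was not resolved. The skipped exon has 58.3% GC, and Erbb4-202 also has 303 more bases at its start with 70.3% GC (chr1:69107757-69108059). The counts of Erbb4-202 were close between the libraries, and those of Erbb4-201 were lower in library 2. The part of GC content in this was not tested.

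Erbb2 and Tgfa had few counts outside 1 transcript. Erbb2-201 held 96.4% and 96.1%, and Erbb2-202, a noncoding transcript, held 3.56% and 3.91%, on 1.51 counts in library 1. From posterior mean TPM the share of Erbb2-201 was 63.3% and 92.6%, so the split in library 1, with 48 counts in the whole gene, is uncertain. Tgfa-201, of 159 codons, held 100% and 87.7%, and Tgfa-202 held 12.3% in library 2 on 1.35 counts, too few to read.

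**Figure D4:**
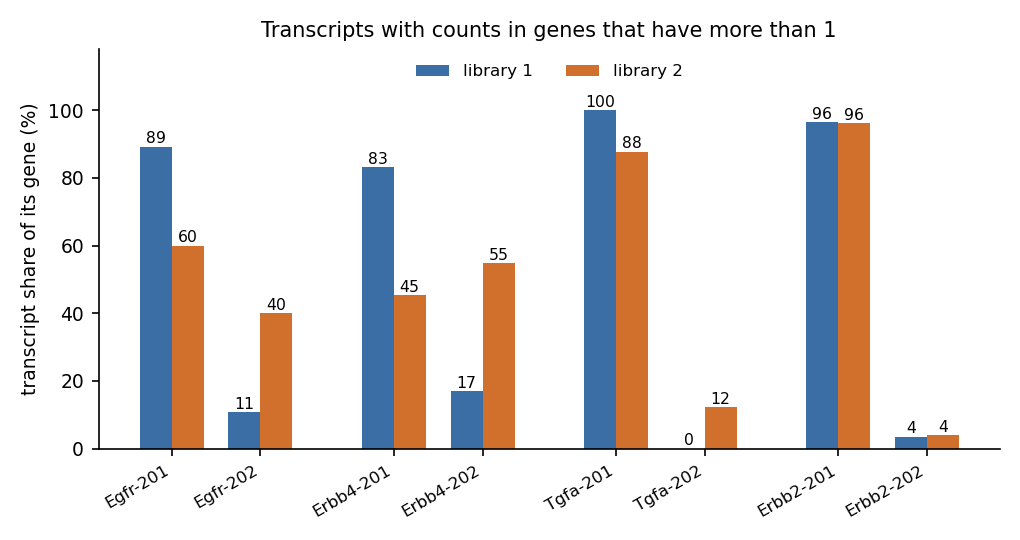
Share of each transcript in the TPM of its gene, in percent, for Egfr, Erbb4, Tgfa and Erbb2, with 1 bar per library. Egfr-202 and Erbb4-202 have larger shares in library 2, and the bars of Erbb2 in library 1 rest on 48 counts.

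The other genes of the pathway were described by list, to be read beside the background above (35.7% of genes toward library 2 and 25.2% toward library 1). That background is for TMM scaling. Of 15553 genes, total counts called 7681 toward library 2 and 718 toward library 1. With the GC trend removed, 1614 and 1542 of 14298 genes were called. Under TMM scaling, markers of several cell types had calls toward library 2 and none toward library 1. Their summed TPM was 1.65 and 16.7 for urothelium (4 of 6 called) and 6.95 and 61.2 for macrophages (2 of 4). It was 21.8 and 347 for collecting duct (3 of 4) and 51.8 and 108 for stroma (2 of 4). These sums are not corrected for the mitochondrial share, which lowers TPM in library 1. Dcn, the stroma marker of highest mean TPM, had 181 and 103 TPM with mitochondrial genes and copies left out. Its log2 ratio was -0.83, not called, while Pdgfrb, Col1a1 and Col1a2 had 3.26, 2.68 and 0.83. With the GC trend removed 3 of the 4 macrophage markers were called toward library 2. For collecting duct that held for only 1 of 4, and for urothelium for 1 of 5 tested. For stroma, 0 were then called toward library 2 and 2 toward library 1. Other marker lists had TMM calls both ways, given here toward library 2 and then library 1. They were 3 and 1 of 5 for endothelium and 3 and 1 of 6 for thick ascending limb. Proximal tubule had 2 and 1 of 6, and podocytes 1 and 1 of 4. With the GC trend removed these became 2 and 0, 1 and 1, 1 and 1 of 5 tested, and 0 and 1. The part of these cells in the differences below was not tested. Other ligands of the family were low: of 6, only Nrg1, a neuregulin that binds Erbb3 and Erbb4, reached TPM 1, in library 2 (0.53 and 2.03 TPM). By posterior mean TPM, Nrg4, a ligand of Erbb4, had 1.29 and 2.13 against 0.53 and 1.95 for Nrg1. The deposited interval of Nrg4 was 0.628 to 2.055 TPM in library 1 and 1.097 to 3.303 TPM in library 2. That of Nrg1 was 0.345 to 0.708 TPM and 1.489 to 2.432 TPM. They overlapped in both libraries, so these 2 genes were not ordered. In TPM, Nrg4, Ereg, Epgn, Nrg2 and Nrg3 were under TPM 1, and Nrg3 had 0 counts in both. The 2 tested, Nrg1 and Nrg4, were not called. Erbb3, a receptor at 7.03 and 20.6 TPM, was thus measured beside Nrg1 at 0.53 and 2.03 TPM, or 0.53 and 1.95 by posterior mean.

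Genes that release ligands were present. Adam10, the main sheddase of Egf and Btc, had 33.9 and 29.6 TPM and was called higher in library 1 (log2 ratio -1.57), and Adam9 had 32.9 and 44.5 TPM. Calls among the 10 tested went toward library 2 for 4 and toward library 1 for 1, and the median log2 ratio was 0.47. Higher in library 2 were Adam15 (1.10 and 39.6 TPM), the iRhom genes Rhbdf1 (0.13 and 14 TPM) and Rhbdf2 (0.05 and 4.10 TPM), which guide Adam17 to the surface, and their partner Frmd8 (0.70 and 8.67 TPM). Adam8 and Adam19 were under TPM 1 in both libraries. With the GC trend removed none of the 10 was called and the median was -0.08.

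Downstream, adaptors and MAP kinases had 14 genes tested, of which 5 were called toward library 2 and 3 toward library 1 (median 0.43). Under total counts the calls were 9 and 0, and with the GC trend removed 1 and 3. Abundant members included the kinases Map2k2 (0.46 and 66 TPM) and Araf (13.7 and 47.5 TPM). Map2k2, Mapk3 (1.39 and 55.3 TPM) and Hras (2.35 and 54.3 TPM) had ratios above 8-fold. With the GC trend removed, Hras was called the other way, with a log2 ratio of -1.77. In the PI3 kinase, STAT and phospholipase list, 11 genes were tested, and 7 were called toward library 2 and 3 toward library 1 (median 2.06). The PI3 kinase subunits Pik3r1 (29.5 and 22 TPM) and Pik3ca (28.4 and 21.5 TPM) were called higher in library 1. The kinases Akt2 (2.14 and 41.7 TPM) and Akt1 (0.62 and 40.3 TPM) and the subunit Pik3r2 (0.38 and 15.5 TPM) were called higher in library 2. With the GC trend removed, 0 of the 11 were called in either direction and the median was 0.13.

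The next list is named negative regulators, and the effect of its genes on the receptors was not measured. It was led by Errfi1, which blocks the ErbB kinases and had 121 and 189 TPM, more than any receptor. Usp8, a deubiquitinase of Egfr, followed with 29.2 and 35.1 TPM, and Dusp6, a phosphatase of MAP kinases, with 23 and 36.8 TPM. Among 18 tested, 3 were called toward library 2 and 4 toward library 1, and the median of -0.30 became 0.60 under total counts. Cblc, a ubiquitin ligase, differed most, with 0.26 and 14.5 TPM on 4 and 275 counts. With the GC trend removed its log2 ratio was 0.34 and it was not called. Of 17 genes then tested, 0 were called toward library 2 and 3 toward library 1, and the median was -0.22.

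Early targets of the pathway had 6 of 12 called toward library 2 and 0 toward library 1 (median 1.06). Total counts called 12 of 12 toward library 2. With the GC trend removed the median was -0.38 and 3 were called toward library 1. The list was led by the cyclin Ccnd1 (13.8 and 43.8 TPM), the phosphatase Dusp1 (9.27 and 40.6 TPM) and the transcription factor Egr1 (8.68 and 35.4 TPM), none of them called. Junb (0.06 and 16.9 TPM, on 3 and 460 counts) and Ier2 (0.19 and 14.4 TPM, on 8 and 315 counts) differed by more than 8-fold. With the GC trend removed their log2 ratios were 0.59 and -0.57, and neither was called. Etv4 and Fosl1 were under TPM 1 in both libraries, and Etv4 had 1 and 22 counts, a ratio of 10.9 with a 95% counting interval of 2.59 to 662.

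Magnesium transport, which EGF stimulates in the distal convoluted tubule, was represented by 6 genes, of which 3 were called toward library 2 and 1 toward library 1 (median 1.03). Trpm6, the magnesium channel that EGF acts on, had 3.24 and 5.40 TPM and was not called (log2 ratio -0.62). The related channel Trpm7 had 55.9 and 43.3 TPM and was called higher in library 1 (-1.96). Slc12a3 had 3.98 and 261 TPM, Cnnm2 2.29 and 12.3 TPM. Slc41a3 had 0 and 96 counts, at least 23.3-fold higher in library 2 against a floor of 3 counts per library, and the list's median was the same with that bound. Slc12a3 and Trpm6 are also markers of that segment. Of its 2 other markers, Pvalb had 2.81 and 23.5 TPM and Emx1 0.09 and 30.7 TPM, both called toward library 2. With the GC trend removed, Pvalb had a log2 ratio of 1.75 and kept its call, whereas Emx1 had -0.52 and was not called. Slc12a3 then had 1.99 and kept its call, and Trpm6 had -0.04. The part of that segment in these differences was not tested.

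**Figure D5:**
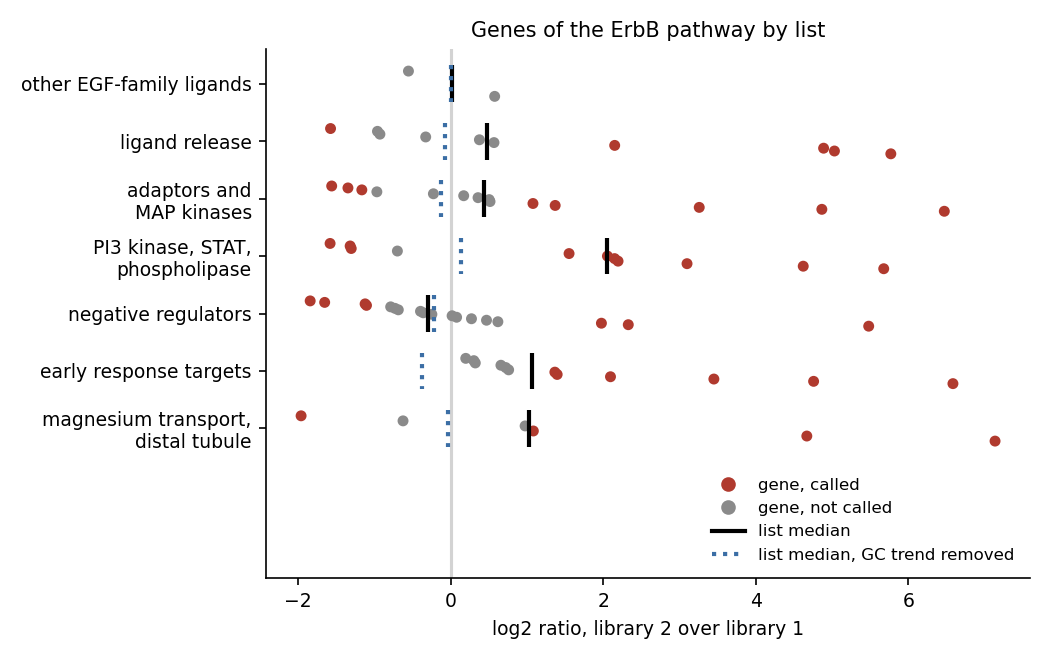
Log2 ratio of library 2 over library 1 for each tested gene of the 7 pathway lists (red, called; grey, not called), with the list median (black line) and the median with the GC trend removed (dotted line). The medians spread from -0.30 to 2.06, and with the trend removed they lie between -0.38 and 0.13.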

How the data were processed

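Per the labels, polyadenylated RNA from kidney tissue was extracted with a column kit and sequenced in 2 libraries of 1 sample. The deposited tables use mm10 and annotation M4. No aligner, quantifier or strand setting is stated in the sources used here. Expected counts, per the file headers, are unnormalized estimates by the authors. TPM and posterior mean TPM were deposited as length-corrected shares of a library, per the file headers. The percent of a transcript in its gene was deposited, as was the bounds signal of a credibility interval of TPM. Gene and transcript lengths in bases were deposited too.

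Symbols, coordinates and sequences came from GENCODE M21 on mm10, and 42462 of 43346 gene rows matched by identifier. Expected counts were rounded and scaled by TMM over genes with at least 10 counts in all (edgeR 4.0.16). With 1 library a side no quasi-likelihood model could be fitted, so the exact conditional binomial test of scipy 1.17.1 was used on 15553 genes, with a prior count of 0.5 in log2 ratios. Intervals (95%, exact) and floors cover counting error only. GC content was that of the most abundant transcript with a reference length within 10%, available for 92.1% of genes with at least 100 counts. Nrg1, Cnnm2 and Rnf41 had none. The trend was fitted by lowess over 20% of genes at a time (statsmodels 0.14.6). The test was checked on simulated counts that held counting error only and no GC trend. That check therefore does not cover differences between libraries beyond counting error. Shared sequence was searched with blastn 2.17.0 at 95% identity. No member shared 50% of its length with another gene, and among the searched pathway genes only Rhbdl2 did.

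Alternatives were total counts, DESeq2 1.42.0 size factors, the GC trend removed, posterior mean counts, no filter, a prior count of 2, posterior mean TPM, TPM without mitochondrial genes and copies, each library left out, a TPM threshold of 0.5, and shares from counts. Shares of transcripts from posterior means were added after seeing the data. Members and lists were chosen with earlier results of these data known. All members were named. From each list the 3 genes of highest mean TPM, those under TPM 1 in both libraries and called genes past 8-fold were named. Frmd8 and Trpm6 were named after their values were seen. One list gene that fits the rule is not reported here.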

Additional observations from a re-analysis of the deposited data

How the results depend on the processing

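Under total counts the calls were 5 members toward library 2 and 1 toward library 1, and with the GC trend removed 0 went toward library 1. Over all genes, total counts called 7681 of 15553 toward library 2 and 718 toward library 1. With the trend removed, 1614 and 1542 of 14298 genes were called. DESeq2 size factors, posterior mean counts, no filter and a prior count of 2 left the number of members called as it was each way. Egfr reversed to 0.14 under total counts and 0.34 with the GC trend removed, and Erbb3 to -0.40 with the trend removed. List medians reversed for negative regulators under total counts (0.60), for ligand release (-0.077), adaptors and MAP kinases (-0.12), early targets (-0.38) and magnesium transport (-0.037) with the trend removed, and for other ligands with no filter (-0.50). List calls toward library 2 and library 1, in that order, moved most under total counts and with the trend removed: ligand release from 4 and 1 to 6 and 0 and to 0 and 0, adaptors and MAP kinases from 5 and 3 to 9 and 0 and to 1 and 3, the PI3 kinase list from 7 and 3 to 7 and 0 and to 0 and 0, negative regulators from 3 and 4 to 6 and 0 and to 0 and 3, early targets from 6 and 0 to 12 and 0 and to 0 and 3, and magnesium transport from 3 and 1 to 4 and 1 and to 2 and 0. The cause was not tested. The share of Erbb3 among the receptors averaged 34.8% in TPM, 32.9% in posterior mean TPM and 28.1% in counts. Members at TPM 1 or more numbered 6 in both libraries together, 8 without library 1 and 6 without library 2, and 8 with mitochondrial genes and copies left out. Egf then averaged 993 TPM and Erbb3 30 TPM. Posterior means gave Egfr-202 10.4% and 35.6% of its gene, and Tgfa-202 a mean of 18.1%. Depth limits Areg, with 1 count in all, Tgfa-202 and, in library 1, Erbb2. No paired analysis was possible because there is only 1 group.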

Other observations

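Some related genes downstream of the receptors stood at a different distance in each library. They were picked after their values were seen. The MAP kinase activators Map2k1 and Map2k2 had 11.9 and 39.5 TPM against 0.46 and 66 TPM, so Map2k2 was the lower of the pair in library 1 and the higher in library 2. For the PI3 kinase subunits, Pik3r1 had 29.5 and 22 TPM and Pik3r2 0.38 and 15.5 TPM. With the GC trend removed, the log2 ratios of library 2 over library 1 were -0.23 for Map2k1, 0.66 for Map2k2, -0.29 for Pik3r1 and 0.13 for Pik3r2.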
